A study of Mus musculus with 12 samples.

Results

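Lipid droplet proteins were followed through 10 genes, taken by symbol from the 41128 genes of a mouse liver count table: Cidea, Cideb, Cidec, Plin2, Plin3, Plin4, Plin5, Pnpla2, G0s2 and Fitm2. A lipid droplet is a core of triglyceride and cholesteryl ester inside a phospholipid monolayer, and these proteins sit on it, enlarge it, guard it or empty it. The CIDE proteins promote fusion and growth of droplets, perilipins coat them and limit access of lipases, Pnpla2 (adipose triglyceride lipase) begins triglyceride breakdown, G0s2 inhibits Pnpla2, and Fitm2 takes part in droplet formation at the endoplasmic reticulum. In liver, Plin2 is the classic coat protein of fatty hepatocytes, and Cidea and Cidec are known to be induced in steatosis.

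The study measured polyadenylated RNA in 12 libraries of 5 groups. Untreated hepatocytes (n = 3) and peritumoral hepatocytes (n = 3) came from mice with the genotype Lats1tm1.1Jfm/RjoJ; Lats2tm1.1Jfm/RjoJ, which are floxed alleles of the Hippo pathway kinases, and were titled WT in both groups. The sources used here do not say whether a Cre was present. For the peritumoral group, mice aged 8 weeks received a hydrodynamic injection of 1 µg SB11 (a transposase), 20 µg myc-NICD (the active part of Notch) and 4 µg myr-ha-Akt (active Akt), and tumours grew for 8 weeks. The other groups were CD-1 IGS mice: controls (n = 2) and animals 24 h (n = 2) or 48 h (n = 2) after a single intraperitoneal dose of thioacetamide (TAA), a hepatotoxin. The labels describe all 12 libraries as hepatocytes selected on a Percoll gradient at an age of 8 weeks, whereas the series design speaks of livers for TAA, a name kept here. With injection at 8 weeks and 8 weeks of growth, the peritumoral mice would be older than this label at collection. Since separate animals are not stated for the replicates, p-values reflect only how far these libraries spread, in part perhaps for technical reasons.

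The hepatocyte libraries held 16228747 to 18522324 counts each and the liver libraries 9640845 to 13692235, and floors drawn from them cover counting error only. Values after ± are SD between libraries for levels and SE of the fit for log2 fold changes, and both include spread between libraries. Peritumoral replicate 2 stood apart: it held 9770 counts of the female transcript Xist and 0 of the Y-linked Ddx3y, while the other 5 hepatocyte libraries had at most 3 counts of Xist, and its summed level of 8 bile duct markers was 10277 RPM (reads at a common library total) against 775 and 1113 in the other peritumoral libraries. Those 5 libraries had Ddx3y at 59.6 to 75.5 RPM, whereas all 6 liver libraries had Xist at 196 to 456 RPM and 0 counts of Ddx3y. Active Notch and Akt were injected, and peritumoral replicate 2 also had the most Notch1 and Akt1 of all libraries. Its Notch1 level was 462 RPM, while replicates 1 and 3 had 77.9 and 77.1 RPM and the untreated libraries 19.0 to 20.3 RPM. For Akt1 these levels were 251, 86.8, 101 and 46.0 to 88.9 RPM. Whether such reads stem from injected sequence or from tumour cells was not tested. Untreated replicate 3 stood apart in several droplet genes, as given below. All 10 hepatocyte markers were present in every group, with sums of 97037 to 102849 RPM in untreated, 81639 to 145301 in peritumoral, 180718 to 184844 in control, 141583 to 152581 in 24 h and 123439 to 131932 in 48 h libraries. In bulk RNA, fewer cells of a type and less RNA per cell cannot be told apart.

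Promoters are shown for Cidec, Plin2 and Fitm2, the genes of the set that fell in peritumoral hepatocytes. They come from RefSeq on GRCm38.p6, each read on the minus strand 5′ to 3′ from 250 bases before to 50 bases after a transcription start; Cidec has a pair of annotated starts. The windows are chr6:113435711-113436010 and chr6:113434715-113435014 for Cidec, chr4:86670010-86670309 for Plin2 and chr2:163472580-163472879 for Fitm2. Capitals mark matches to the 5 motifs searched on both strands.
Cidec start 1: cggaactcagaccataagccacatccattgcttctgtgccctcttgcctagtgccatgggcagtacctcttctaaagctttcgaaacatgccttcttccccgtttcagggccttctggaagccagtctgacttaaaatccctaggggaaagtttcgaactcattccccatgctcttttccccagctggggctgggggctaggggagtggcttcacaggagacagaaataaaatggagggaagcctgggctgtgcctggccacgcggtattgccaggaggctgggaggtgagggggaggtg
Cidec start 2: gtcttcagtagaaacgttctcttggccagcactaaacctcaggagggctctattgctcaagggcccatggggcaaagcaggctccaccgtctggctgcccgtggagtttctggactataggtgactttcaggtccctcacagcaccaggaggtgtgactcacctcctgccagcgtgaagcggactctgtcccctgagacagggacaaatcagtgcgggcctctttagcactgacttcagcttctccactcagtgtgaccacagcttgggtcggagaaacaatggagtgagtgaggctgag
Plin2: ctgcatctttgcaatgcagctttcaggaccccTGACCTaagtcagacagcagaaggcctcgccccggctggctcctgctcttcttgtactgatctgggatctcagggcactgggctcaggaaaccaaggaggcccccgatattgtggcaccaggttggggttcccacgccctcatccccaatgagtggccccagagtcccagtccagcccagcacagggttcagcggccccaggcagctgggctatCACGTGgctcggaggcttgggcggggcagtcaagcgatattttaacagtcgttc
Fitm2: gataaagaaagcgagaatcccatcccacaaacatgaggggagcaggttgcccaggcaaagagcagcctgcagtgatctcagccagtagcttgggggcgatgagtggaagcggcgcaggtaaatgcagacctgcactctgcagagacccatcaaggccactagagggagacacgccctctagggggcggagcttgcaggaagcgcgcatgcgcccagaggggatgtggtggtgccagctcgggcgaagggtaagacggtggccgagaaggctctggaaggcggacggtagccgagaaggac
The Plin2 window held the nuclear receptor core motif AGGTCA on its reverse strand at positions -218 to -213, and the E-box CACGTG at -4 to 2, counted from the start with no position 0. AGGTCA was found in 16.3% of 32851 RefSeq promoter windows of 300 bases and CACGTG in 7.15%. The Cidec and Fitm2 windows held neither of these, nor the DR1 element, a direct repeat of AGGTCA with a 1-base spacer (0.0396% of windows, each also a match to AGGTCA), TGACGTCA (1.79%) or TATAAA (13.6%). Of 11 windows for 9 of the genes, both Plin5 windows also held AGGTCA, and the Cideb window held TATAAA at -172 to -167. A match is a description of letters and not of a bound site.

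Per kilobase of exon, Plin2 or Cideb had the highest level of the set in every group. In RPKM (reads per kilobase of exon at a common depth, scaled over all 12 libraries), Plin2 averaged 266 ± 117 (SD, n = 3) in untreated and 63.7 ± 33.5 in peritumoral hepatocytes, and 132 ± 29.7 (n = 2) in control, 192 ± 4.22 in 24 h and 171 ± 24.2 in 48 h livers. Cideb averaged 139 ± 18.8, 105 ± 49.8, 179 ± 22.0, 77.4 ± 3.63 and 90.1 ± 0.278 RPKM in the same order. Peritumoral hepatocytes and control livers were the groups in which the Cideb mean exceeded that of Plin2. G0s2, Plin5, Pnpla2, Plin3 and Fitm2 lay between 7.77 RPKM (Fitm2, peritumoral) and 79.4 RPKM (G0s2, control livers). Cidec, Plin4 and Cidea took the lowest 3 places in every group.

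**Figure D1:**
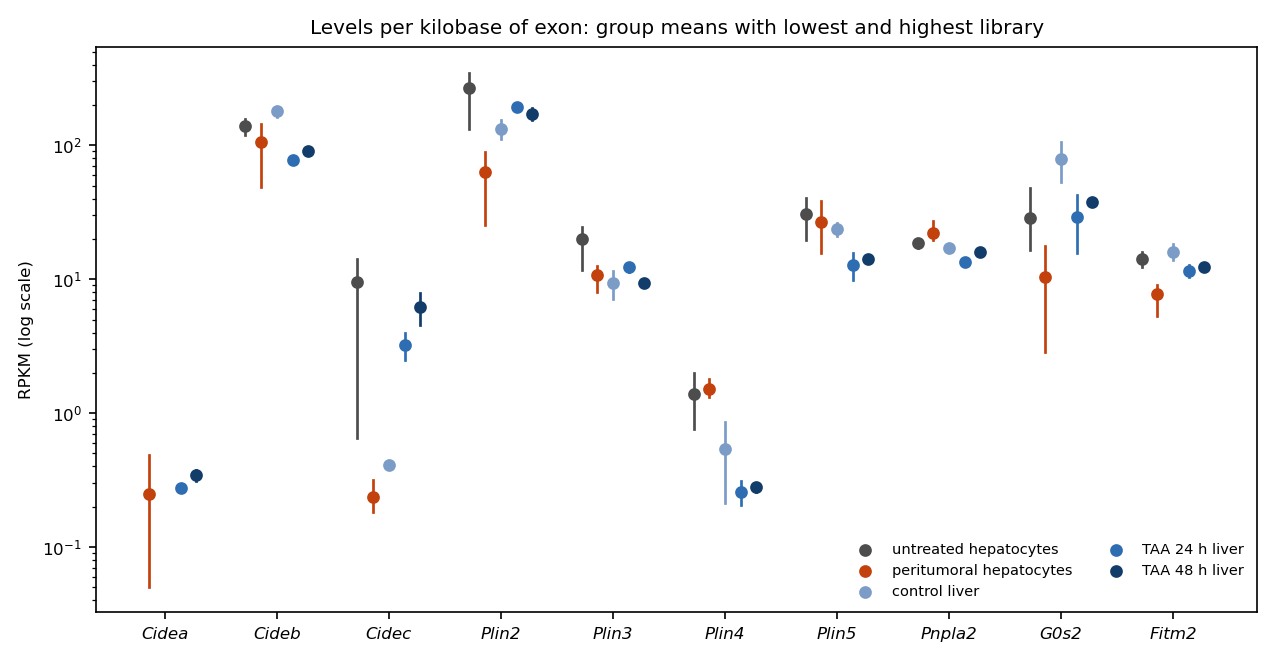
Level of each gene per kilobase of exon in RPKM on a log axis, by group; points are group means and lines join the lowest and highest library, and groups at 0 (Cidea in untreated hepatocytes and control livers) are not drawn. Plin2 and Cideb are the highest in every group, and Cidec spans from 0.235 RPKM in peritumoral to 9.58 RPKM in untreated hepatocytes.

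Ordered by level, neighbouring groups often overlapped. For Plin2 the order was untreated hepatocytes, 24 h livers, 48 h livers, control livers and peritumoral hepatocytes, and on this scale over all 12 libraries only the first neighbours overlapped in range. When the 6 liver libraries were scaled by themselves, as in the CPM given below, the 48 h livers overlapped with both the 24 h and the control livers. For Cidec the order was untreated hepatocytes, 48 h livers, 24 h livers, control livers and peritumoral hepatocytes, again with overlap only between the first neighbours. For Plin3 and Plin4 every group overlapped with its neighbour in the order. Hepatocyte and liver libraries differ in mouse stock and possibly preparation, so their levels are set side by side without a test.

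Peritumoral hepatocytes held less Cidec, Plin2 and Fitm2 transcript than untreated hepatocytes, and no droplet gene passed the test upward. Of the 9 genes tested, 3 were lower at an adjusted p under 0.05, where 10.2% of 13442 tested genes were lower and 19.0% higher (29.2% in either direction); the median log2 fold change of the 9 was -0.88 against -0.02 over all tested genes. The groups did not overlap for these 3 genes, as for 49.5% of all tested genes. For the 10 hepatocyte markers the median log2 fold change was -0.60 in this comparison, with 0 called. Levels from here on are CPM (counts at a common library total, scaled by TMM factors), and each adjusted p is that of edgeR's quasi-likelihood test, adjusted by Benjamini-Hochberg over all tested genes. None passed upward with edgeR or DESeq2, and with edgeR 0 of the 9 were higher at an unadjusted p under 0.05. Injection, tumours and perhaps age differ together between peritumoral and untreated hepatocytes, as does sex (by Xist and Ddx3y) for peritumoral replicate 2. These cannot be told apart.

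**Figure D2:**
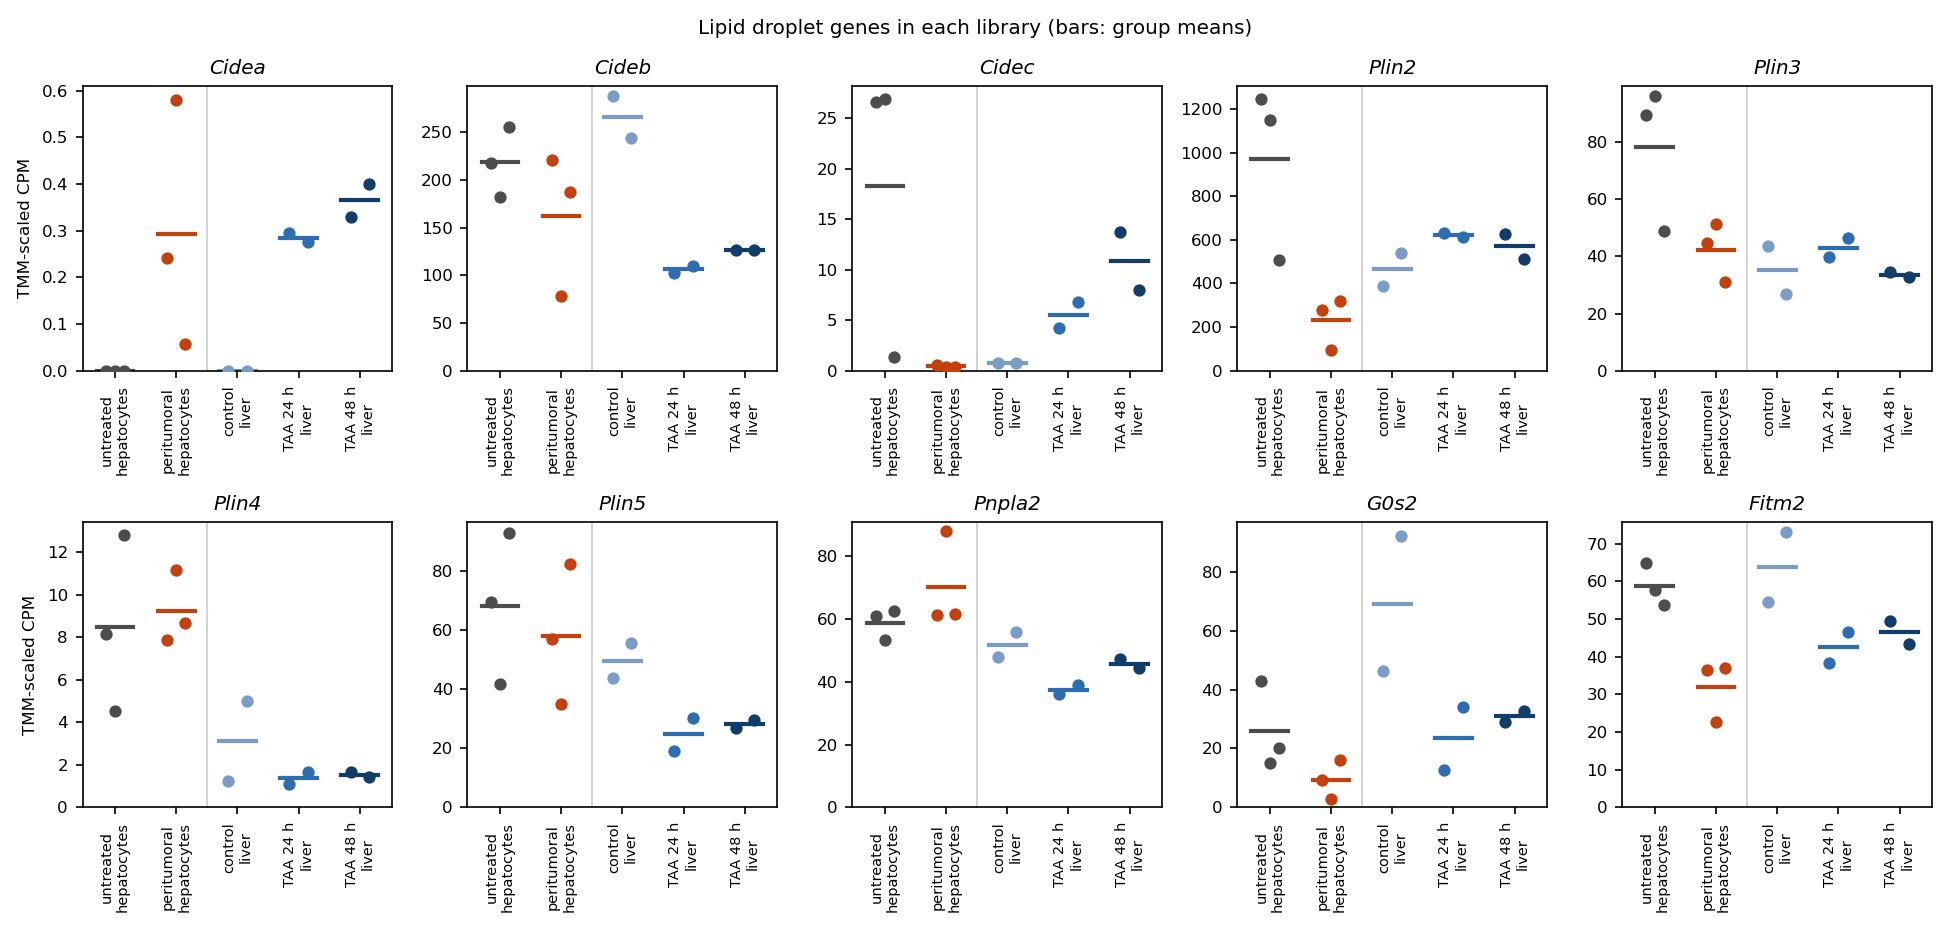
CPM of each of the 10 genes (linear axes from 0, one scale per gene) in every library; points are libraries and bars are group means, with hepatocytes left and livers right of the grey line. Cidec is high in untreated replicates 1 and 2 (26.6 and 26.9 CPM) and at 1.34 CPM in replicate 3, under 1 CPM in peritumoral hepatocytes and control livers, and between 4.26 and 13.8 CPM after TAA.

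Among the CIDE genes, Cidec, which enlarges droplets by lipid transfer between them, stood at 26.6, 26.9 and 1.34 CPM in untreated and at 0.606, 0.415 and 0.347 CPM in peritumoral libraries. The underlying counts were 460, 462 and 17 against 10, 10 and 6. Every peritumoral library lay below every untreated one, but untreated replicate 3 lay nearer to the peritumoral libraries than to its own group. The log2 fold change was -5.31 ± 1.10 (SE; adjusted p = 0.0154). Without untreated replicate 3 it was -5.87 (adjusted p = 0.0142), and without this library and peritumoral replicate 2 it was -5.79 (adjusted p = 0.00498). That pair was picked after seeing the data, in which untreated replicate 3 was the lowest of its group for Cidec. The smaller p is therefore no added support. The call was lost without untreated replicate 1 (adjusted p = 0.0538), untreated replicate 2 (0.0533) or peritumoral replicate 3 (0.0506).

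Cideb, a relative that in liver also takes part in loading very low density lipoprotein (VLDL) with lipid, stood at 218, 182 and 256 CPM in untreated and 221, 78.5 and 188 CPM in peritumoral libraries. The groups overlapped, with peritumoral replicate 2 lowest, and the log2 fold change was -0.43 ± 0.37 (adjusted p = 0.425). Of its exon length, 76.3% overlaps Nop9, a gene on the opposite strand, and since the sources do not state whether counting used strand, reads of the 2 genes may be mixed. Nop9 itself had a log2 fold change of -0.75 ± 0.19 (adjusted p = 0.0271). Cidea, whose product is best known from brown fat, was at 0 counts in all 3 untreated libraries and at 4, 14 and 1 counts in peritumoral ones, too few to be tested. Summed over each group, this was 6.10-fold the level of a floor of 3 counts over the untreated group. That ratio leaves out the error of the peritumoral counts themselves. Replicate 2 held most of these counts, and without it the ratio was 2.47-fold. With all libraries and without a count filter its adjusted p was 0.0999.

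Among perilipins, Plin2, the main coat protein of hepatocyte droplets, stood at 1248, 1150 and 510 CPM in untreated and at 279, 96.6 and 319 CPM in peritumoral libraries. The groups did not overlap, and untreated replicate 3 and peritumoral replicate 2 were the lowest of their groups. The log2 fold change was -2.07 ± 0.54 (adjusted p = 0.0315), and without both of those libraries it was -2.00 (adjusted p = 0.00547). As that pair was picked after seeing the data, the smaller p is no added support. The call was lost without untreated replicate 1 (adjusted p = 0.118), untreated replicate 2 (0.0936), peritumoral replicate 1 (0.0596) or peritumoral replicate 3 (0.0553), and with the replicate number as a block (0.0591).

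Plin3, a perilipin that moves between cytosol and droplet, stood at 89.5, 96.1 and 48.9 CPM against 44.7, 51.3 and 30.9 CPM. Peritumoral replicate 2 exceeded untreated replicate 3, and the log2 fold change of -0.89 ± 0.31 did not pass (adjusted p = 0.0702). It passed without untreated replicate 3 (-1.15, adjusted p = 0.0296), with DESeq2 (0.0412), with all 12 libraries in 1 edgeR fit (0.0318) and with the replicate block (0.0249). Plin4, which coats nascent droplets in fat cells, stood at 8.14, 4.54 and 12.8 against 7.88, 11.2 and 8.67 CPM, and Plin5, which links droplets to mitochondria, at 69.5, 41.9 and 92.7 against 57.1, 35.0 and 82.3 CPM. In both genes the groups overlapped, with log2 fold changes of 0.12 ± 0.38 (adjusted p = 0.836) and -0.23 ± 0.38 (adjusted p = 0.694). Plin4 and Plin5 are neighbours on chromosome 17, 1797 bases apart on the same strand.

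On the lipolytic side, Pnpla2 stood at 60.9, 53.2 and 62.6 CPM in untreated and 61.3, 88.2 and 61.6 CPM in peritumoral libraries, with overlap and a log2 fold change of 0.26 ± 0.19 (adjusted p = 0.344). G0s2, its inhibitor, stood at 42.8, 14.9 and 20.1 against 9.27, 2.70 and 15.9 CPM. Peritumoral replicate 3 exceeded untreated replicate 2, and the log2 fold change of -1.49 ± 0.66 did not pass (adjusted p = 0.137). Fitm2 stood at 64.9, 57.7 and 53.7 CPM in untreated and at 36.4, 22.7 and 36.9 CPM in peritumoral libraries. All peritumoral values lay below all untreated ones, and the log2 fold change was -0.88 ± 0.22 (adjusted p = 0.0273). That call was lost without untreated replicate 1 (adjusted p = 0.138) or replicate 2 (0.0821), and with library totals alone as the scale (-0.68, 0.0736), which moved the median of all tested genes to 0.23.

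Genes around the droplet moved in several directions in peritumoral hepatocytes, where the shares over all tested genes were the 19.0% higher and 10.2% lower given above. Of 13 other genes of lipolysis 1 rose, Hilpda, an inhibitor of Pnpla2, from 5.16 ± 1.88 to 29.3 ± 14.9 CPM (log2 fold change 2.50 ± 0.44, adjusted p = 0.00971), and none fell. Of 15 tested genes of triglyceride synthesis 3 fell and none rose: Acsl4, which activates long-chain fatty acids (-1.19 ± 0.18, adjusted p = 0.0064), Gpam, the mitochondrial first step of glycerolipid synthesis (-0.76 ± 0.15, 0.0135), and Dgat1, a last step of triglyceride synthesis (-0.60 ± 0.18, 0.0473). The Dgat1 call was lost without any 1 hepatocyte library other than peritumoral replicate 1 (adjusted p of 0.0912 to 0.136), and the Gpam call without untreated replicate 1 (0.0709) or 2 (0.0589). Of 5 VLDL assembly genes, Mttp, which loads lipid on apolipoprotein B (-1.15 ± 0.30, adjusted p = 0.029), and Mia2, a cargo receptor gene (-0.93 ± 0.16, 0.0091), fell. The Mttp call was lost without untreated replicate 1 (0.132), untreated replicate 2 (0.0879) or peritumoral replicate 1 (0.0613), and the Mia2 call without untreated replicate 1 (0.0619). None of 10 tested other droplet genes passed.

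Of 21 genes of PPAR signalling and lipid uptake, 5 rose and 2 fell, shares near those of all tested genes. Cd36, a fatty acid translocase, went from 18.6 ± 4.06 to 63.9 ± 23.4 CPM (1.78 ± 0.30, adjusted p = 0.00827), Fabp4, a fatty acid carrier of fat cells, macrophages and endothelium, from 7.67 ± 1.52 to 21.5 ± 4.66 CPM (1.49 ± 0.25, 0.00818), and Slc27a1, a fatty acid transporter, from 3.76 ± 1.01 to 28.0 ± 31.8 CPM (2.90 ± 0.82, 0.0389). Peritumoral replicate 2 carried most of the Slc27a1 value, at 64.7 CPM against 9.51 and 9.77 CPM, and without it the log2 fold change was 1.41 (adjusted p = 0.013). That call was lost without any 1 of the untreated libraries (0.0864 to 0.128) and with the replicate block (0.0936). The median log2 fold changes of the lists were -0.43 for lipolysis, -0.56 for triglyceride synthesis, -0.23 for other droplet genes, -0.93 for VLDL assembly and 0.17 for PPAR and uptake, beside -0.02 over all tested genes.

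Markers of other cell types moved with this comparison. Summed levels of 10 macrophage markers were 238 to 414 RPM in untreated and 1547 to 4301 RPM in peritumoral libraries, with 8 of 10 higher. The 10 stellate cell markers summed to 53.6 to 128 against 720 to 1875 RPM, with 8 of 10 higher, and the 10 endothelial markers to 191 to 335 against 1072 to 1730 RPM, with all 10 higher. Of 8 bile duct markers 7 were tested and 5 were higher, and of 8 neutrophil markers 7 were tested and 7 were higher. The neutrophil markers summed to 1.29 to 3.26 RPM in untreated and 18.0 to 39.5 RPM in peritumoral libraries. Mpo, among them, was at 0 counts in all untreated libraries, so only a higher call was possible for it. The part of all these markers in the values of the droplet genes was not tested. Of 7 adipocyte markers, Fabp4 alone passed the count filter, Lep was at 0 counts in every hepatocyte library, and Plin1, the perilipin that defines fat cells, had 0 counts except for 1 count in peritumoral replicate 3.

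After TAA, Cidec was called higher at both times, and the other droplet genes that were called were lower. At 24 h, 1 of 9 tested genes was higher and 5 were lower, against a background of 21.3% and 20.5% of 13497 genes (41.8% in either direction). At 48 h, 1 was higher and 2 were lower, against 25.0% and 23.9% (48.9% in either direction). The share of lower calls at 48 h was near that of all tested genes. The count of lower calls at 24 h fell to 1 or 2 in several settings given below. Groups not overlapping made up 74.1% of tested genes at 24 h and 76.4% at 48 h. Both comparisons use the same 2 control libraries. The median log2 fold change of the 9 genes was -0.59 at 24 h and -0.46 at 48 h, against 0.02 and -0.03 over all tested genes. That of the 10 hepatocyte markers was lower still, at -0.99 and -0.93.

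**Figure D3:**
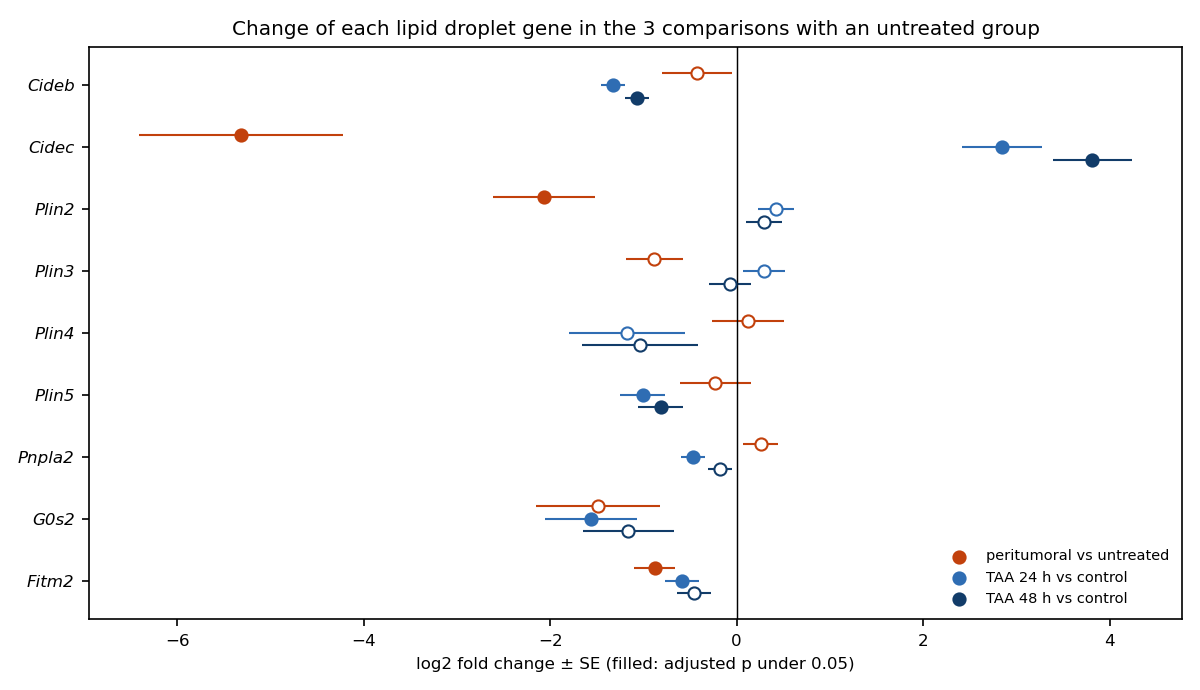
Log2 fold change of the 9 tested genes in peritumoral against untreated hepatocytes and in livers 24 h and 48 h after TAA against control livers; horizontal lines are standard errors and filled points have an adjusted p under 0.05. Cidec lies at -5.31 in the peritumoral comparison and at 2.85 and 3.82 after TAA.

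Cidec stood at 0.722 and 0.802 CPM in control livers, at 4.26 and 6.81 CPM at 24 h and at 13.8 and 8.00 CPM at 48 h, from counts of 7 and 8, 58 and 99, and 167 and 120. All TAA libraries exceeded both controls, and both 48 h libraries exceeded both 24 h libraries. The log2 fold changes against control were 2.85 ± 0.43 (adjusted p = 0.00326) and 3.82 ± 0.43 (0.000806). Between the times the change of 0.97 ± 0.34 did not pass (adjusted p = 0.129). With all 12 libraries in a single fit, whose spread is larger, the 24 h call was lost (adjusted p = 0.0871).

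Cideb moved the opposite way, from 288 and 244 CPM in controls to 103 and 110 CPM at 24 h and 127 and 127 CPM at 48 h. The groups did not overlap, and the log2 fold changes were -1.33 ± 0.13 (adjusted p = 0.000755) and -1.07 ± 0.12 (0.000925). With all 12 libraries in 1 fit the 48 h call was lost (adjusted p = 0.0769). The overlapping gene Nop9 had log2 fold changes of 0.52 ± 0.16 (adjusted p = 0.0414) and 0.30 ± 0.16 (0.163), so the pair moved in different directions at 24 h. Cidea had 0 counts in both controls, 4 and 4 at 24 h and 4 and 6 at 48 h. Summed, these were 2.66-fold and 3.95-fold the floor of 3 counts over the control group, with the error of the TAA counts left out. Without a count filter edgeR's adjusted p was 0.0643 at 24 h and 0.0385 at 48 h, and that of DESeq2 at 48 h was 0.0897.

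Plin2 stood at 389 and 541 CPM in controls, 634 and 612 CPM at 24 h and 626 and 514 CPM at 48 h. The 24 h libraries exceeded both controls and the 48 h libraries overlapped with them, and neither log2 fold change passed (0.42 ± 0.19, adjusted p = 0.122, and 0.29 ± 0.19, adjusted p = 0.249). The 24 h value passed without control replicate 2 (0.67, adjusted p = 0.0489) and with upper-quartile factors (0.57, 0.0494). Plin5 stood at 43.7 and 55.5 CPM in controls, 19.0 and 30.3 CPM at 24 h and 26.8 and 29.6 CPM at 48 h, with no overlap and log2 fold changes of -1.01 ± 0.24 (adjusted p = 0.0167) and -0.81 ± 0.24 (0.0291). The 24 h call was lost without control replicate 2 (adjusted p = 0.0686) or 24 h replicate 1 (0.0695), and the 48 h call without control replicate 2 (0.103), 48 h replicate 1 (0.131) or 48 h replicate 2 (0.0884). With all 12 libraries in 1 fit both were lost (0.152 and 0.212), and with upper-quartile factors the 48 h call was (0.0593).

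Plin3 stood at 43.5 and 27.0 CPM in controls, 39.9 and 46.2 CPM at 24 h and 34.6 and 32.6 CPM at 48 h, and Plin4 at 1.24 and 5.01, 1.10 and 1.65, and 1.65 and 1.40 CPM. The groups overlapped in both genes. The log2 fold changes at 24 h were 0.29 ± 0.23 (adjusted p = 0.335) for Plin3 and -1.18 ± 0.62 (0.170) for Plin4, and those at 48 h were -0.07 ± 0.23 (0.825) and -1.04 ± 0.62 (0.208). The controls differed by more than the TAA libraries, and control replicate 1 or 2 alone decided these values: without control replicate 1, Plin3 passed upward at 24 h (0.67, adjusted p = 0.0281) and Plin4 downward at both times (-1.86 and -1.76, adjusted p = 0.0173 and 0.0153).

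Pnpla2 and its inhibitor G0s2 were both lower at 24 h. Pnpla2 stood at 47.9 and 55.8 CPM in controls, 36.1 and 38.9 CPM at 24 h and 47.2 and 44.4 CPM at 48 h, with log2 fold changes of -0.47 ± 0.13 (adjusted p = 0.028) and -0.18 ± 0.13 (0.292). G0s2 stood at 46.2 and 92.3 CPM in controls, 12.6 and 34.1 CPM at 24 h and 29.0 and 32.8 CPM at 48 h, with -1.57 ± 0.49 (adjusted p = 0.0421) and -1.16 ± 0.49 (0.089). Every TAA library lay below both controls in both genes. Fitm2 followed with 54.6 and 73.1, 38.4 and 46.5, and 49.4 and 43.4 CPM, also without overlap, and log2 fold changes of -0.59 ± 0.18 (adjusted p = 0.0394) and -0.46 ± 0.18 (0.075).

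Of 17 alternatives, the 24 h call was kept in 6 for Pnpla2, 7 for G0s2 and 6 for Fitm2. All 3 were lost without 24 h replicate 1 (adjusted p of 0.148 for Pnpla2, 0.143 for G0s2 and 0.208 for Fitm2), without control replicate 2 (0.091, 0.19 and 0.15), and without 48 h replicate 1 (0.0571, 0.0677 and 0.0643) or 48 h replicate 2 (0.0573, 0.0643 and 0.0631). Without 24 h replicate 2 the Pnpla2 (0.072) and Fitm2 (0.062) calls were lost. With library totals alone as the scale, Pnpla2 turned to 0.05 at 24 h, a setting that moved the median of all tested genes to 0.53 at 24 h and 0.68 at 48 h. Under it Plin2 passed upward at both times (0.94 and 1.01, adjusted p = 0.008 and 0.00461) and the Plin5 calls were lost (-0.50 and -0.10, adjusted p = 0.104 and 0.706). At 48 h without control replicate 1, Fitm2 (-0.70, adjusted p = 0.0227) and G0s2 (-1.62, 0.0454) passed downward. G0s2 at 48 h also passed downward with DESeq2 (0.0403), with only the 4 libraries compared (0.0394), with the replicate block (0.0292) and without 24 h replicate 1 (0.0372) or 2 (0.0329).

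Between 24 h and 48 h none of the 9 genes passed edgeR's test in either direction, where 7.33% of tested genes did (4.96% higher and 2.36% lower), and DESeq2 called 0 of them. That background rested on single libraries: of all genes 670 were higher and 319 lower, but 0 and 2 without 24 h replicate 1, 0 and 0 without 24 h replicate 2, 21 and 5 without 48 h replicate 1, 196 and 60 without 48 h replicate 2, and 99 and 32 with all 12 libraries in 1 fit. Without 24 h replicate 2, 1458 and 1319 genes had an unadjusted p under 0.05. By edgeR's unadjusted quasi-likelihood p, Cidec alone was under 0.05. The groups of the 2 times did not overlap for Cideb, Cidec, Plin3 and Pnpla2, as for 61.9% of tested genes, and their log2 fold changes were 0.26 ± 0.12, 0.97 ± 0.34, -0.36 ± 0.23 and 0.29 ± 0.13.

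Around the droplet, more genes fell than rose in each of the 5 lipid lists after TAA. Of all tested genes, 21.3% were higher and 20.5% lower at 24 h, and 25.0% and 23.9% at 48 h. Of 13 other lipolysis genes, 2 rose and 8 fell at 24 h and 1 rose and 9 fell at 48 h. Hilpda rose from 3.15 ± 0.224 to 14.3 ± 0.437 and 21.1 ± 0.496 CPM (log2 fold changes 2.18 ± 0.17 and 2.74 ± 0.17, adjusted p = 0.000543 and 0.000197). Mgll, which cleaves monoglycerides, fell from 215 ± 43.1 to 40.8 ± 1.47 CPM at 24 h (-2.40 ± 0.23, adjusted p = 0.00078), and Ces1f, a carboxylesterase, from 596 ± 176 to 67.1 ± 30.8 CPM at 48 h (-3.15 ± 0.38, 0.00104).

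Of 16 tested triglyceride synthesis genes, 3 rose and 6 fell at 24 h and 4 rose and 10 fell at 48 h. Dgat2, the other last step of synthesis, went from 593 ± 48.7 to 314 ± 32.1 and 226 ± 7.25 CPM (-0.92 ± 0.14 and -1.39 ± 0.14, adjusted p = 0.00304 and 0.000532). Of 10 tested other droplet genes, 1 rose and 7 fell at each time, among them Hsd17b13, a hepatocyte droplet enzyme, from 372 ± 195 to 71.2 ± 3.06 and 79.8 ± 7.43 CPM (-2.38 ± 0.34 and -2.22 ± 0.34, adjusted p = 0.0027 and 0.00241). Without control replicate 2 the Hsd17b13 values were -1.73 and -1.60. Of 5 VLDL assembly genes, 2 fell at 24 h and 3 at 48 h, with Sar1b, a coat GTPase, at -1.36 ± 0.15 and -1.24 ± 0.15 (adjusted p = 0.00115 and 0.00104).

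Of 21 PPAR and uptake genes, 3 rose and 12 fell at 24 h and 3 rose and 11 fell at 48 h. Lpl, which frees fatty acids from lipoproteins, rose from 10.5 ± 2.81 to 61.7 ± 13.4 and 255 ± 37.1 CPM (2.55 ± 0.24 and 4.59 ± 0.27, adjusted p = 0.000782 and 0.000173). Cd36 rose from 32.8 ± 2.46 to 181 ± 6.98 CPM at 48 h (2.47 ± 0.22, adjusted p = 0.000401). Cyp4a14, a fatty acid hydroxylase, fell from 48.5 ± 22.5 to 1.44 ± 0.586 CPM at 24 h (-5.06 ± 0.44, adjusted p = 0.00063). From 24 h to 48 h, 5 of the 21 rose, where 4.96% of all tested genes did, among them Lpl (2.05 ± 0.24, adjusted p = 0.0133), Cyp4a14 (3.57 ± 0.42, 0.0136) and Cd36 (1.44 ± 0.21, 0.0208). The Cd36 call was lost without any 1 of the 4 TAA libraries, and those of Lpl and Cyp4a14 without any 1 but 48 h replicate 2 (adjusted p of 0.0624 to 0.113 over these losses).

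**Figure D4:**
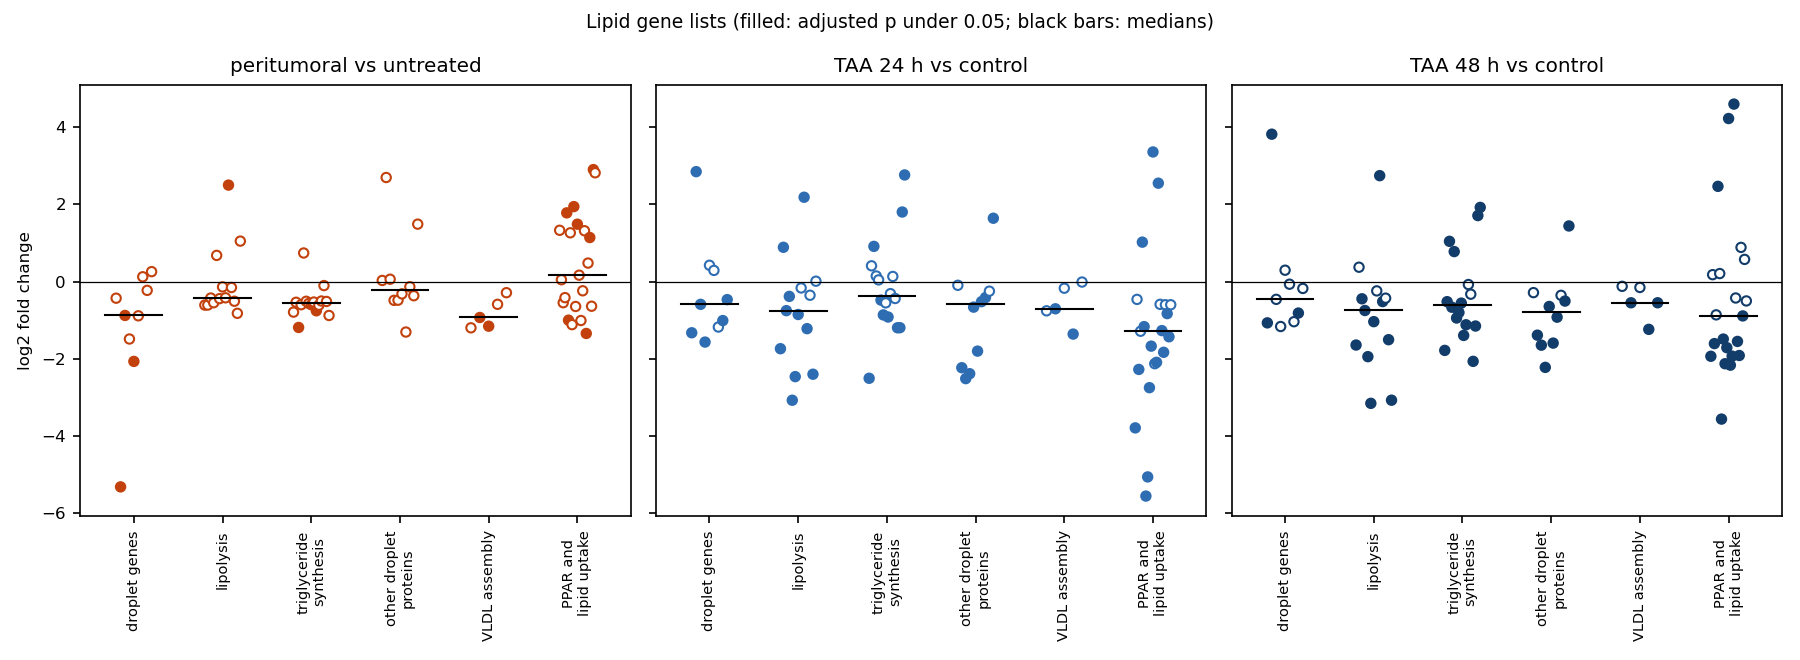
Log2 fold change of each tested gene of the droplet set and of 5 related lists in peritumoral hepatocytes and in livers after TAA, each against its untreated group; filled points have an adjusted p under 0.05 and black bars are medians. In the droplet set the medians are -0.88, -0.59 and -0.46, and Cidec is the lowest point in the first panel and the highest of its set in the other panels.

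Macrophage marker sums were 63.6 to 141 RPM in control, 389 to 522 at 24 h and 960 to 1534 RPM at 48 h, with 6 and 10 of 10 markers higher, and stellate sums were 97.2 to 164, 502 to 529 and 1364 to 1878 RPM, with 8 and 9 of 10 higher. Endothelial sums were 150 to 182, 392 to 520 and 510 to 648 RPM in the same order, with 7 and 8 of 10 markers higher. Bile duct sums were 59.1 to 64.2, 147 to 164 and 208 to 309 RPM, and of 6 markers tested 4 were higher at 24 h, and 2 higher and 1 lower at 48 h. Neutrophil markers were at 0 in controls and summed to 4.02 to 6.71 and 3.54 to 5.19 RPM, with 2 of 2 tested higher at each time. With 0 counts in controls, these 2 could pass the count filter only through TAA libraries, so only a higher call was possible. Of 10 hepatocyte markers 5 fell at each time and none rose. Their part in the droplet gene values was not tested. The 7 adipocyte markers summed to 0.676 to 1.48 RPM in control, 14.3 to 16.4 at 24 h and 27.8 to 35.8 RPM at 48 h. Fabp4 alone of them was tested. It was higher at both times (log2 fold changes 3.36 ± 0.34 and 4.22 ± 0.34, adjusted p = 0.000901 and 0.00033). Lep and Plin1 were at 0 counts in all 6 liver libraries.

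The responses of Cidec and Plin2 differed between the peritumoral and TAA comparisons by a test of the difference itself, in a fit of all 12 libraries. Of the 9 genes, 2 were lower in the peritumoral than in the TAA response at each time, where 12.1% (24 h) and 8.57% (48 h) of 14615 tested genes were. None was higher, where 9.03% and 6.71% were, and the share in either direction was 21.1% and 15.3%. Of all genes, 1771 and 1253 were lower. Against 24 h there were 343 to 1069 without untreated replicate 1 or 2, a control or a 24 h library, with the fewest without 24 h replicate 1, and 2478 without untreated replicate 3. Against 48 h there were 185 to 776 without untreated replicate 1 or 2 or any liver library, with the fewest without 48 h replicate 1, and 2144 without untreated replicate 3. For Cidec the difference in log2 fold change was -8.30 ± 1.50 against 24 h (adjusted p = 0.00839) and -9.24 ± 1.51 against 48 h (0.00842). For Plin2 it was -2.60 ± 0.73 (adjusted p = 0.0321) and -2.44 ± 0.73 (0.0486). Mouse stock, sex (by the Xist and Ddx3y counts above), possibly preparation, and treatment differ together between these responses and cannot be told apart.

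The other 7 differences did not pass. They lay between -1.30 ± 0.46 for Plin3 (adjusted p = 0.0682) and 1.20 ± 0.76 for Plin4 (0.272) against 24 h. Without untreated replicate 3 the Plin3 difference passed against both times (-1.57 and -1.17, adjusted p = 0.0116 and 0.0399), and against 24 h also without peritumoral replicate 2 (-1.50, 0.0438) and with the replicate block (-1.26, 0.0253). Without peritumoral replicate 2 the Cideb difference passed upward against both times (1.09 and 0.87, adjusted p = 0.00898 and 0.0223). The Plin2 difference against 24 h was lost without any 1 of untreated replicates 1 and 2, either control or either 24 h library (adjusted p of 0.0637 to 0.129), and with the replicate block (-2.58, 0.0538). Against 48 h it was lost without untreated replicates 1 or 2, peritumoral replicate 1 or any 1 of the 6 liver libraries (0.053 to 0.167), and with the replicate block (-2.40, 0.0753), no count filter (0.0571) or the legacy dispersion (0.0517), and that of Cidec without control replicate 1 (0.0522) or 2 (0.0508).

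Across the 12 libraries, the droplet genes did not move as a block. These libraries differ in group, stock, sex and possibly preparation, so the correlations below mix such differences with spread inside groups. As a description, Pearson's r of log2 CPM was 0.91 for G0s2 with Fitm2, 0.84 for Plin2 with Fitm2, 0.84 for Plin4 with Pnpla2 and 0.82 for Cidec with Plin2, and -0.65 for Plin2 with Pnpla2. Among 10283 other genes, the closest to Cidec was Gcc2 (r = 0.98), the closest to Plin2 was Gpr89 (0.97), the closest to Cideb was Tmco1 (0.99), and the closest to Plin5 were Tsc22d3 and Pck1 (0.94 each).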

How the data were processed

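Raw counts of 41128 genes in 12 libraries, deposited by the authors, were the input, and their table of scaled values was left out. Per the submitters' processing notes, the tools were STAR and DESeq2 and the builds mm10 and GRCm38. The sources used here give neither versions nor the annotation nor a strand setting; per the labels' protocols the kit was stranded. GENCODE mouse release M21 on GRCm38 gave positions and exon lengths for 40254 IDs (97.9%).

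Tests ran under R 4.3.3 in edgeR 4.0.16 (TMM factors 0.750 to 1.31, minimum count 10 and total 15 in filterByExpr, two-sided quasi-likelihood F test, Benjamini-Hochberg adjustment, threshold 0.05), in separate fits of 6 hepatocyte libraries and 6 liver libraries, and all 12 for differences between responses. Of the 10 genes, 9 passed the filter; Cidea did not. The floor of detection was 3 counts. Biological coefficients of variation were 0.358 (hepatocytes) and 0.188 (livers). The SE of a log2 fold change was its size divided by the square root of the F statistic. The functions were tested on simulated data. Alternatives were other factors, DESeq2 1.42.0, other filters and thresholds, other sets of libraries, the replicate number as a block, each library left out and, chosen after seeing the data, untreated replicate 3 and peritumoral replicate 2 left out together and the legacy dispersion. From each list up to 3 called genes with the smallest p could be named, and for each droplet gene with a mean of at least 1 CPM the 3 genes most like it; a list gene that this rule selected is not reported here. The genes and lists were chosen with earlier results of these data known.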

Additional observations from a re-analysis of the deposited data

Results flagged for a closer look

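By a test of the difference, the change of Cidec was not the same in the peritumoral and TAA comparisons. The log2 fold change in peritumoral hepatocytes minus that in TAA livers was -8.30 at 24 h and -9.24 at 48 h. Cidec fell in the first and rose in the second, from 18.3 ± 14.7 to 0.456 ± 0.134 CPM (n = 3 each) and from 0.762 ± 0.057 to 5.54 ± 1.80 and 10.9 ± 4.08 CPM (n = 2 each). The reference groups also stood apart, with untreated hepatocytes at 1.34 to 26.9 CPM and control livers at 0.722 and 0.802 CPM. Mouse stock, sex, possibly preparation and treatment differ together between these comparisons and cannot be told apart.

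For Plin2 the same difference was -2.60 at 24 h and -2.44 at 48 h. It fell in peritumoral hepatocytes and did not pass the test in TAA livers. Without untreated replicate 3 and peritumoral replicate 2, a pair picked after seeing the data, the differences were -8.69 and -9.62 for Cidec and -2.48 and -2.32 for Plin2.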

How the results depend on the processing

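Precision was limited by 2 or 3 libraries a group and, for Cidea, Cidec in controls and Plin4, by low counts. Of genes lower in peritumoral hepatocytes (3), 0 were so at an adjusted p under 0.01, and 0 to 4 with a library left out. Higher at 24 h after TAA (1) were 2 with upper-quartile factors, 3 with no factors, 0 with all 12 libraries in 1 fit and 1 to 2 with a library left out. Over all genes, 2877 of 13497 were higher there, 3601 with upper-quartile factors, 6127 with no factors and 2030 of 14615 with all 12 libraries in 1 fit. Lower at 24 h (5) were 2 with upper-quartile factors, 1 with no factors, 2 with no count filter, 1 at an adjusted p under 0.01, 1 with all 12 libraries in 1 fit, 2 with only the 4 libraries compared and 1 to 6 with a library left out. All genes lower there numbered 2767 of 13497, 2133 with upper-quartile factors, 1228 with no factors and 1481 at 0.01. They numbered 2300 of 20914 with no count filter, 1225 of 14615 in 1 fit and 2420 of 12766 with only the 4 libraries compared. Higher at 48 h (1) were 4 with no factors and 2 with no count filter. Over all genes these counts were 3372 of 13497, 7661 with no factors and 3305 of 20914 with no count filter. Lower at 48 h (2) were 1 with upper-quartile factors, 1 with no factors, 1 at an adjusted p under 0.01, 0 with all 12 libraries in 1 fit and 1 to 5 with a library left out. All genes lower there numbered 3226 of 13497, 2403 with upper-quartile factors, 971 with no factors, 1930 at 0.01 and 1698 of 14615 in 1 fit. In the difference from 24 h (0 higher, 2 lower), DESeq2 called 1 higher, leaving out untreated replicate 3 and peritumoral replicate 2 gave 3 higher, and single libraries left out gave 0 to 1 higher and 1 to 3 lower. In that from 48 h (0 and 2), the pair left out gave 1 higher, no count filter 1 lower, legacy dispersion 1 lower and single libraries left out 0 to 1 higher and 0 to 3 lower. Over all genes, the difference from 24 h had 1320 higher, 2033 with DESeq2 and 2847 with the pair left out. That from 48 h had 980 higher, and 2653 with the pair left out. Its lower genes numbered 1253, 911 with no count filter and 1192 with legacy dispersion. A minimum count of 50 removed Cidec from the peritumoral comparison. The cause was not tested, apart from the fewer libraries or genes some settings leave.

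These log2 fold changes turned direction; none of them had passed the test except Pnpla2 at 24 h and, at 48 h, Mia2 and Tm6sf2. With no factors, Plin5 was 0.00018 (peritumoral), Pnpla2 0.045 (24 h) and 0.53 (48 h), Plin3 0.64, Fitm2 0.25, Mia2 0.16 and Tm6sf2 0.16 (48 h), and Plin2 0.073 (48 h against 24 h). Plin3 at 48 h was 0.096 with upper-quartile factors and 0.0097 with all 12 libraries in 1 fit. The G0s2 difference from 24 h was 0.070 with RLE factors, 0.072 with DESeq2 and 0.019 with no count filter. Without untreated replicate 3 and peritumoral replicate 2, Cideb was 0.031 and Plin5 0.32 (peritumoral), and the G0s2 difference from 24 h was 0.32. With a library left out, the peritumoral ranges were -0.73 to -0.051 for Cideb, -0.20 to 0.53 for Plin4 and -0.57 to 0.090 for Plin5. At 24 h they were -0.028 to 0.67 for Plin3 and -1.86 to 0.15 for Plin4, and at 48 h -0.42 to 0.27 and -1.76 to 0.25. Between the times they were -0.28 to 0.0075 for Plin2, -0.12 to 0.43 for Plin4, -0.11 to 0.54 for Plin5, -0.15 to 1.26 for G0s2 and -0.0084 to 0.24 for Fitm2. In the differences they were -0.085 to 1.94 and -0.20 to 1.83 for Plin4, and -0.67 to 0.85 and -1.04 to 0.21 for G0s2.

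Deviations of same-numbered hepatocyte libraries from their group means correlated at -0.245, 0.148 and 0.126, and of livers at -0.012 to 0.051. Libraries with different numbers were not compared, and with 2 libraries a group the deviations mirror each other. Whether replicate numbers pair the libraries therefore stays undecided. With the replicate block, 3 droplet genes were lower in peritumoral hepatocytes, where Plin2 was lost and Plin3 gained. At 24 h and 48 h, 5 and 3 were lower, G0s2 being gained at 48 h. The difference from 24 h had 2 lower, again with Plin2 lost and Plin3 gained, and that from 48 h had 1 lower, with Plin2 lost. Over all genes the block gave 2580 and 3051 lower at 24 h and 48 h, and 1710 and 1205 lower in the 2 differences. Of all genes, 709 were then lower in peritumoral hepatocytes, against 1370 without it, 205 with no factors, 673 with upper-quartile factors, 828 at a minimum count of 50, 2354 with all 12 libraries in 1 fit, 97 at an adjusted p under 0.01, 2382 without untreated replicate 3 and peritumoral replicate 2, and 66 to 1398 with a library left out. Of all genes, 2560 were higher there, against 1211 at 0.01 and 1293 to 2657 with a library left out. With no factors, higher and lower genes numbered 6127 and 1228 at 24 h (2877 and 2767 in the reported test) and 7661 and 971 at 48 h (3372 and 3226). All 12 libraries in 1 fit gave 1225 and 1698 lower genes at these times.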
